A study of Mus musculus with 20 samples.

Results

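The genes described here were the nitric oxide and cyclic GMP pathway members Gucy1a1, Gucy1a2, Gucy1b1, Prkg1, Pde5a, Pde3a, Pde1a, Nos3 and Npr1, which are 9 of the 43422 genes measured in the mouse abdominal aorta. They were chosen by name, with earlier results of these data known: Gucy1a1 was among the top genes of the Ang II response in Plod1-/- mice, so its levels in those mice are given as a description with no test. All 9 genes were found in the files by their Ensembl identifiers. Gene expression was measured by RNA sequencing in 20 C57BL/6 mice that the labels give as 6 months old, in 4 groups of 5. The study's methods name the substrain C57Bl/6NCrl, describe WT and Plod1-/- littermates and give a younger age when the pumps were placed. WT mice and Plod1-/- mice (KO), which carry a constitutive knock-out of the collagen-modifying enzyme lysyl hydroxylase 1 in every cell type, received saline or the vasoconstrictor peptide angiotensin II (Ang II) at 1000 ng/kg per minute from subcutaneous osmotic pumps for 14 days. The groups are named WT-Saline, WT-AngII, KO-Saline and KO-AngII.

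Nitric oxide made by endothelial nitric oxide synthase diffuses into vascular smooth muscle and activates soluble guanylate cyclase, an enzyme built from an alpha and a beta subunit, which converts GTP to cyclic GMP. Natriuretic peptides raise cyclic GMP by another route, through receptors that are themselves guanylate cyclases. Cyclic GMP activates cGMP-dependent protein kinase, which lowers calcium and the calcium sensitivity of contraction, and phosphodiesterases end the signal by hydrolysing the nucleotide.

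Values are FPKM, a level per length of transcript and per sequenced fragment mapped. Fold changes are differences of means on the log2(FPKM + 1) scale, given with their standard error (SE), and understate the change of low genes. A gene that passed a Benjamini-Hochberg adjusted p below 0.05 in limma, over all genes tested in the comparison, and whose log2 fold change exceeded 1 in size was counted as a differentially expressed gene (DEG). The number of reads behind each value is unknown. The replicates are separate mice of a group.

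Plod1, the deleted gene, had an FPKM of at least 22.8 in every WT library and at most 0.0415 in every KO library. The library labelled WT-AngII replicate 4 stood apart from its group. Its summed level of 14 smooth muscle markers was 23332 FPKM, against 7947 to 14608 in the other WT-AngII mice and 19461 to 27816 in WT-Saline. The library labelled KO-AngII replicate 1 had a sum of 21755, against 3357 to 8443 in the other KO-AngII mice. Xist RNA, transcribed from the inactive X chromosome of females, was at 7.93 FPKM in KO-AngII replicate 1 and 15.1 in KO-Saline replicate 5 and below 1 in the other 18 libraries, although the study describes male mice. Mitochondrial transcripts made up 8.37% to 14.6% of the summed FPKM in WT-Saline (median 9.92%), 14.6% to 29.1% in WT-AngII (24.5%), 9.93% to 16.2% in KO-Saline (13.9%) and 9.23% to 21.1% in KO-AngII mice (11.9%). Fits with these genes left out and the rest rescaled are given below, and their part in the differences was not tested further. In this bulk tissue, fewer cells of a type and less RNA per cell cannot be told apart.

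**Figure D1:**
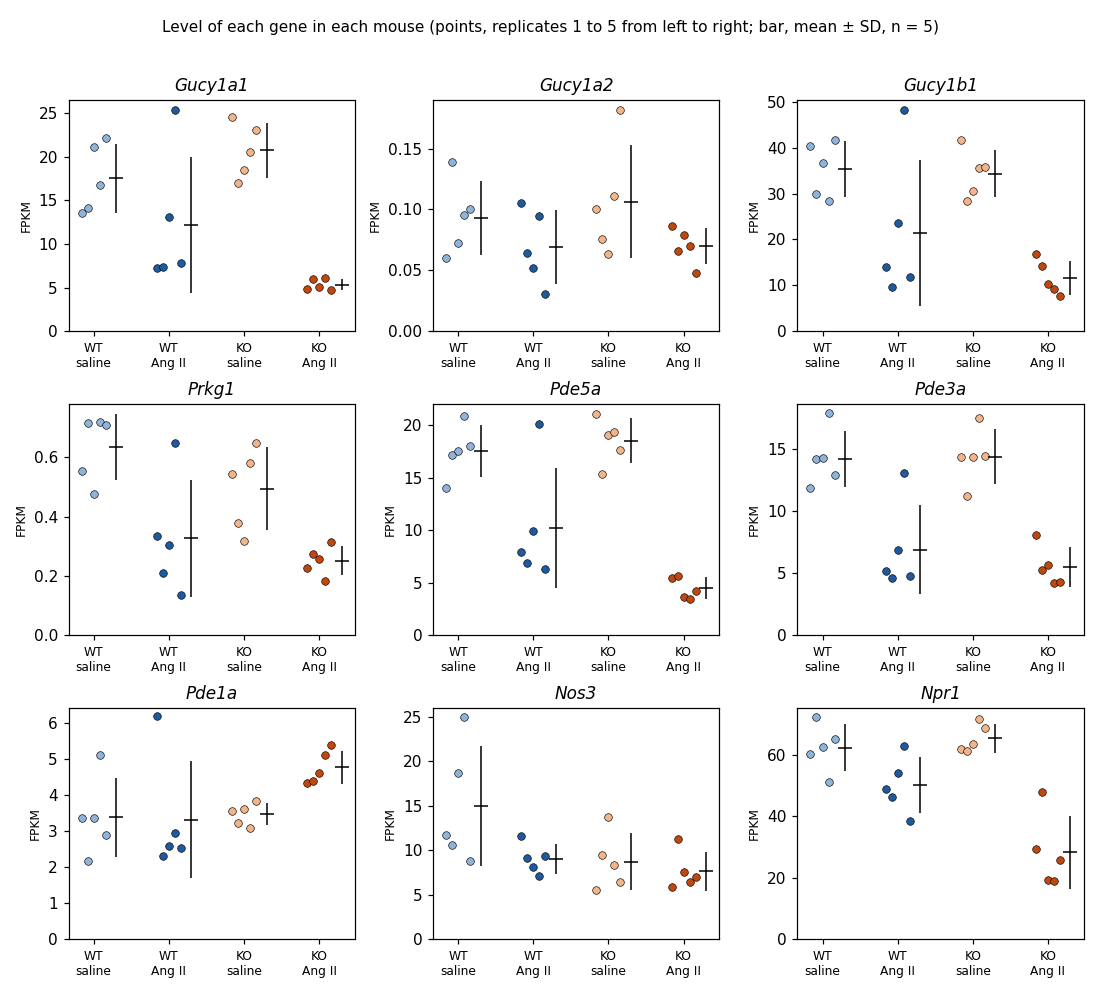
FPKM (y axis, each panel from 0) of the 9 genes in each of the 20 mice by group (x axis). Points are mice and bars are the mean ± SD of 5 mice. Gucy1a1, Gucy1b1, Pde5a, Pde3a and Npr1 lay below the whole KO-Saline range in all 5 KO-AngII mice, and WT-AngII replicate 4 lay among or above the saline mice for Gucy1a1, Gucy1b1 and Pde5a.

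In WT-Saline mice the order of mean levels was Npr1 (62.3 FPKM), Gucy1b1 (35.4), Gucy1a1 (17.5), Pde5a (17.5), Nos3 (15.0), Pde3a (14.2), Pde1a (3.39), Prkg1 (0.635) and Gucy1a2 (0.0932). The ranges of Npr1, Gucy1b1 and Gucy1a1 did not overlap, while Gucy1a1 and Pde5a, Pde5a and Nos3, and Nos3 and Pde3a overlapped with their neighbour in the order. In KO-AngII mice Npr1 remained the highest at 28.2 FPKM, without overlap with Gucy1b1 at 11.6. The genes from Gucy1b1 down to Pde5a (4.47 FPKM) each overlapped with the next in that group, and Nos3 (7.61) ranked above Gucy1a1 (5.34).

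On the GRCm38 build, 4 of the 9 genes lie on chromosome 3. Gucy1a1 (ENSMUSG00000033910) spans chr3:82092427-82145789 on the minus strand and Gucy1b1 (ENSMUSG00000028005) chr3:82032006-82074689 on the same strand, with 17737 bases between them. Pde5a (ENSMUSG00000053965) spans chr3:122728947-122859374 on the plus strand and Npr1 (ENSMUSG00000027931) chr3:90450591-90465866 on the minus strand. Nos3 (ENSMUSG00000028978) is at chr5:24364810-24384474, Pde3a (ENSMUSG00000041741) at chr6:141249269-141507448 and Pde1a (ENSMUSG00000059173) at chr2:79834453-80129458. Prkg1 (ENSMUSG00000052920) is at chr19:30564489-31765033 and Gucy1a2 (ENSMUSG00000041624) at chr9:3532778-3894736.

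The 250 bases before the start of transcription are shown for Gucy1a1, Gucy1b1 and Pde5a. Of the 9 genes, those that reached an FPKM of 1 in 5 or more mice were compared with Gucy1a1 across the 20 mice. Pde5a (Pearson's r = 0.96) and Gucy1b1 (0.93) were the most like it, and other pairs were not compared. The sequences were taken from RefSeq (GRCm38.p6), whose promoter table matched 7 of the 9 genes. Pde3a and Nos3 were not matched. Each is written 5′ to 3′ on the gene's own strand, and capitals mark a GC box (GGGCGG on either strand). The windows are chr3:82145651-82145900 for the start of Gucy1a1 listed first in that table, chr3:82074712-82074961 for Gucy1b1 and chr3:122728908-122729157 for Pde5a.
Gucy1a1: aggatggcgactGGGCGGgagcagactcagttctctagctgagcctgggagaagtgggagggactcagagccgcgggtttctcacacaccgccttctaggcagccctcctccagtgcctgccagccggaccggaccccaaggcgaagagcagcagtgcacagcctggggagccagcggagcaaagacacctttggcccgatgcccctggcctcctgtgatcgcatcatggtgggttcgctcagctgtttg
Gucy1b1: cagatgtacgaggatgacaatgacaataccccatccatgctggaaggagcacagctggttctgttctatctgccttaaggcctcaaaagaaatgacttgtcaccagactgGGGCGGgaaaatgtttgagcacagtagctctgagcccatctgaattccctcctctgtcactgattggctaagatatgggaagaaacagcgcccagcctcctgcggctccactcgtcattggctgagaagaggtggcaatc
Pde5a: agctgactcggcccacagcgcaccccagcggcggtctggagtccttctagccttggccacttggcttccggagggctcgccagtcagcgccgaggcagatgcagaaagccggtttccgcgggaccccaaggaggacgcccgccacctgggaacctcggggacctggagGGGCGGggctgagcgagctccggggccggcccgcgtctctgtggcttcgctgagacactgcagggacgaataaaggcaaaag
The GC box began 238 bases before the start in Gucy1a1, 140 bases before it in Gucy1b1 and 82 bases before it in Pde5a. The window of the other listed start of Gucy1a1, chr3:82145074-82145323, held no GC box. A GC box was also found before a start of Gucy1a2, Prkg1 and Npr1, and 32.7% of all 32851 RefSeq windows of this length held a GC box. The CArG box, a motif of many smooth muscle genes, was searched on both strands and was found in none of the windows of the 7 genes, against 1.47% of all windows. The TATA box (TATAAA) was found before 2 of the 4 starts of Pde1a, against 12.4% of all windows. The cAMP response element (TGACGTCA) was found in none of these windows, against 1.55% of all.

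Nos3 encodes endothelial nitric oxide synthase. Its FPKM in WT-Saline mice was 11.7, 10.6, 18.7, 25.0 and 8.81, and in WT-AngII mice 11.6, 9.10, 8.10, 7.10 and 9.33. In KO-Saline mice it was 5.57, 9.50, 13.7, 8.30 and 6.42, and in KO-AngII mice 5.81, 11.3, 7.59, 6.41 and 6.95. The groups overlapped in every comparison, and WT-Saline replicates 3 and 4 were the highest of all mice. The log2 fold change of Nos3 was -0.58 (SE 0.25, limma adjusted p = 0.0789) for Ang II in WT mice and -0.14 (SE 0.23) for Ang II in KO mice. Between the genotypes it was -0.68 under saline (SE 0.29, limma adjusted p = 0.158) and -0.24 under Ang II (SE 0.18, limma adjusted p = 0.322). None of the tested differences passed the test. The summed level of 14 endothelial markers ran from 205 to 437 FPKM in WT-Saline, 252 to 496 in WT-AngII, 152 to 299 in KO-Saline and 147 to 331 in KO-AngII. In WT-AngII against WT-Saline mice 6 of them were DEGs higher and none was lower, against 6.38% higher and 2.28% lower of all genes tested. The list was split, with 4 of 14 log2 fold changes below 0. Among these, Pecam1 (-0.85, limma adjusted p = 0.0351) and Erg (-0.48, limma adjusted p = 0.0456) missed only the fold threshold. The median log2 fold change of the list was 0.65 there, against -0.14 over all genes. For Ang II in KO mice 2 of 14 markers were below 0, with a median of 0.41 against 0.05. Between the genotypes under saline 11 of 12 tested markers were below 0, with a median of -0.36 against -0.01. Under Ang II 13 of 14 were below 0, with a median of -0.48 against 0.12. The part of endothelial cells in the level of Nos3 was not tested. Nos3 and its opposite-strand neighbours Atg9b and Gm15587 overlap, and since the library kit does not mark strand their reads cannot be told apart. Neither neighbour exceeded 1.91 FPKM.

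Gucy1a1 encodes the alpha1 subunit of soluble guanylate cyclase. Its FPKM was 13.5, 14.1, 21.1, 16.8 and 22.2 in WT-Saline mice and 7.25, 7.39, 13.1, 25.4 and 7.83 in WT-AngII mice. It was 24.6, 17.0, 18.5, 20.5 and 23.1 in KO-Saline mice and 4.87, 6.00, 5.02, 6.09 and 4.72 in KO-AngII mice. The 5 KO-AngII mice were the lowest of all 20, while 4 WT-AngII mice lay below the whole WT-Saline range and replicate 4 lay above it. The mean was 17.5 ± 3.94 FPKM (SD, n = 5) in WT-Saline, 12.2 ± 7.77 in WT-AngII, 20.7 ± 3.13 in KO-Saline and 5.34 ± 0.65 in KO-AngII. In KO-AngII mice it was thus 25.8% of the KO-Saline mean, and the log2 fold change was -1.77 (SE 0.12). By its p this difference ranked 8 among 12333 genes, and by fold change it ranked 147 from the lowest. The gene was chosen by this contrast, so the difference is not tested. In WT mice the log2 fold change for Ang II was -0.63 (SE 0.30, limma adjusted p = 0.116), which did not pass. Without WT-AngII replicate 4 it was -0.92 (limma adjusted p = 0.00322). Between the genotypes under saline it was 0.24 (SE 0.15), given with no test since the KO-Saline mice are part of the contrast that chose the gene.

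Gucy1b1 encodes the beta1 subunit, the obligate partner of the alpha subunits. Its FPKM was 40.4, 30.0, 36.6, 28.3 and 41.6 in WT-Saline mice and 14.0, 9.64, 23.7, 48.2 and 11.8 in WT-AngII mice. It was 41.6, 28.3, 30.6, 35.5 and 35.8 in KO-Saline mice and 16.8, 14.1, 10.3, 9.20 and 7.71 in KO-AngII mice. As with the alpha1 subunit, WT-AngII replicate 4 was above all WT-Saline mice and the other 4 were below them. The log2 fold change for Ang II was -0.92 in WT mice (SE 0.35, limma adjusted p = 0.0583) and -1.52 in KO mice (SE 0.19). Without WT-AngII replicate 4 the WT value was -1.26 (limma adjusted p = 0.00118) and passed both thresholds. Between the genotypes it was -0.04 under saline (SE 0.13, limma adjusted p = 0.881) and -0.64 under Ang II (SE 0.39, limma adjusted p = 0.224). Without WT-AngII replicate 4 the latter was -0.30.

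The ratio of Gucy1b1 to Gucy1a1, 2 subunits that pair in the enzyme, was steady in KO-Saline mice, at 1.55 to 1.74. It ran from 1.68 to 2.98 in WT-Saline and from 1.30 to 1.94 in WT-AngII. In KO-AngII mice it was 3.45, 2.36, 2.05, 1.51 and 1.63, with replicate 1 the highest of all 20 mice. Gucy1a2, which encodes the alternative alpha2 subunit, was at most 0.182 FPKM in any mouse. Its mean was 0.0932 FPKM in WT-Saline, 0.0692 in WT-AngII, 0.106 in KO-Saline and 0.0700 in KO-AngII, and the groups overlapped. The two-sided exact permutation p was 0.246 for Ang II in WT mice, 0.587 between the genotypes under saline and 0.944 under Ang II.

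Npr1 encodes the receptor guanylate cyclase for atrial and B-type natriuretic peptides. Its FPKM was 60.1, 72.2, 62.6, 51.2 and 65.2 in WT-Saline mice and 48.9, 46.1, 54.1, 62.8 and 38.3 in WT-AngII mice. It was 61.7, 61.0, 63.4, 71.7 and 68.6 in KO-Saline mice and 29.4, 47.8, 19.1, 18.8 and 25.7 in KO-AngII mice. All KO-AngII mice were below all KO-Saline mice, with replicate 2 the highest of them, whereas the WT groups overlapped. The log2 fold change for Ang II was -0.32 in WT mice (SE 0.14, limma adjusted p = 0.0940) and -1.27 in KO mice (SE 0.22). Under Ang II, Npr1 was lower in KO than in WT mice, at -0.87 on the log2 scale (SE 0.24, limma adjusted p = 0.0217), below the fold that a DEG needs. Without KO-AngII replicate 2 this value was -1.08 and passed both. Under saline the genotypes differed by 0.07 (SE 0.10, 95% interval -0.14 to 0.28, limma adjusted p = 0.652).

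Pde5a encodes the cGMP-specific phosphodiesterase that sildenafil inhibits. Its FPKM was 14.0, 17.2, 17.5, 20.9 and 18.0 in WT-Saline mice and 7.95, 6.84, 9.89, 20.1 and 6.30 in WT-AngII mice. It was 21.1, 15.4, 19.1, 19.4 and 17.6 in KO-Saline mice and 5.47, 5.65, 3.61, 3.46 and 4.18 in KO-AngII mice. Every KO-AngII mouse was below every mouse of the other groups. The mean in KO-AngII mice was 24.2% of that in KO-Saline mice, a log2 fold change of -1.85 (SE 0.14) against -0.83 for Ang II in WT mice (SE 0.25, limma adjusted p = 0.0258). The WT value had an adjusted p under the threshold but not the fold of a DEG, and became -1.09 without WT-AngII replicate 4 (limma adjusted p = 0.000186). Between the genotypes it was 0.08 under saline (SE 0.11, limma adjusted p = 0.676) and -0.94 under Ang II (SE 0.27, limma adjusted p = 0.0247). The Ang II value is close to the fold threshold and passed it without any of WT-AngII replicates 2 and 5 and KO-AngII replicates 1 and 2, at -1.0 to -1.06, while without WT-AngII replicate 4 it was -0.68 (limma adjusted p = 0.0148).

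Pde3a encodes a phosphodiesterase that hydrolyses cyclic AMP and is inhibited by cyclic GMP. Its FPKM was 11.9, 14.2, 14.3, 17.9 and 12.9 in WT-Saline mice and 5.16, 4.59, 6.87, 13.1 and 4.78 in WT-AngII mice. It was 14.4, 11.2, 14.4, 17.5 and 14.5 in KO-Saline mice and 8.09, 5.24, 5.70, 4.18 and 4.30 in KO-AngII mice. The KO groups were separate, and in WT only replicate 4 of the Ang II mice reached the saline range. Pde3a fell in WT-AngII mice, by 1.03 on the log2 scale (SE 0.23, limma adjusted p = 0.00825), and had a log2 fold change of -1.26 for Ang II in KO mice (SE 0.17). The WT call was lost without any of WT-Saline replicate 4 and WT-AngII replicates 1, 2 and 5, where the fold change was -0.93 to -0.97. It was also lost, at -1.0, with mitochondrial genes, whose share was higher in WT-AngII mice, left out and the rest rescaled. Between the genotypes Pde3a differed by 0.02 under saline (SE 0.13, limma adjusted p = 0.939) and by -0.22 under Ang II (SE 0.26, limma adjusted p = 0.551).

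Pde1a encodes a phosphodiesterase that calcium and calmodulin activate, and in KO mice it did not share the direction of Pde5a and Pde3a. Its FPKM was 3.37, 2.16, 3.38, 5.12 and 2.89 in WT-Saline mice and 6.19, 2.31, 2.59, 2.96 and 2.54 in WT-AngII mice. It was 3.57, 3.22, 3.63, 3.10 and 3.83 in KO-Saline mice and 4.33, 4.40, 4.63, 5.12 and 5.39 in KO-AngII mice. All KO-AngII mice were above all KO-Saline mice, and the log2 fold change of 0.37 (SE 0.09) was below that of a DEG. In WT mice it was -0.05 (SE 0.23, 95% interval -0.55 to 0.45, limma adjusted p = 0.861). Between the genotypes it was 0.06 under saline (SE 0.15, limma adjusted p = 0.826) and 0.48 under Ang II (SE 0.20, limma adjusted p = 0.0886).

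Prkg1 encodes cGMP-dependent protein kinase 1, the main kinase of the pathway in smooth muscle, and was below 1 FPKM in every mouse. It was 0.553, 0.716, 0.477, 0.720 and 0.709 FPKM in WT-Saline mice and 0.335, 0.209, 0.305, 0.648 and 0.135 in WT-AngII mice. It was 0.544, 0.380, 0.317, 0.580 and 0.650 in KO-Saline mice and 0.227, 0.275, 0.256, 0.184 and 0.314 in KO-AngII mice. The KO groups did not overlap, with 0.314 the highest KO-AngII and 0.317 the lowest KO-Saline value, and in WT replicate 4 of the Ang II mice was again within the saline range. As the gene was below the filter on low values, it was tested alone. The two-sided exact permutation p was 0.0238 for Ang II in WT mice, 0.143 between the genotypes under saline and 0.556 under Ang II, where 0.00794 is the smallest that 5 mice against 5 can give. Prkg1 overlaps 3 genes on the opposite strand, of which the highest level was 7.72 FPKM, so its low value can hold their reads or lose its own to them.

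Of the 7 genes above the filter, 1 was a DEG lower in WT-AngII than in WT-Saline mice (Pde3a), against 2.28% of the 11994 genes tested, and 0 had all WT-AngII mice below all WT-Saline mice, against 6.88%. Without WT-AngII replicate 4, 3 were DEGs (Gucy1b1, Pde5a and Pde3a), and with mitochondrial genes left out 0 were. In KO mice 5 of the 7 genes (Gucy1a1, Gucy1b1, Pde5a, Pde3a and Npr1) were past both thresholds and lower under Ang II, against 5.51% of the 12333 genes, and the same 5 had no overlap, against 15.0%. Nothing is read from this KO count, since the response of KO mice chose Gucy1a1. Without both libraries that hold Xist RNA this count was also 5. Between the genotypes under saline, 0 of the 7 were DEGs by limma in either direction, against 0.767% of 11999 genes. Nothing is read from this for Gucy1a1, since the KO-Saline mice are part of the contrast that chose it. By limma 1 (Nos3) had an unadjusted p below 0.05, and its p ranked 2825 from the smallest among the 11999. Under Ang II, 0 of the 7 were DEGs by limma, against 11.1% of 12356 genes. Pde5a (limma adjusted p = 0.0247) and Npr1 (limma adjusted p = 0.0217) missed only the fold threshold, and 3849 of all genes had an adjusted p below 0.05. Pde1a had an unadjusted limma p below 0.05 but did not pass adjustment (limma adjusted p = 0.0886). Without the Xist libraries 1 of the 7 was a DEG there (Pde5a, at -1.0). Again with all mice, 2 genes (Gucy1a1 and Pde5a) had all KO-AngII mice below all WT-AngII mice, against 4.62%. In this comparison Gucy1a1 differed by a log2 fold change of -0.90 (SE 0.30), given with no test since its KO-AngII mice are those that chose it. The other genes' values come from the same KO-AngII mice.

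**Figure D2:**
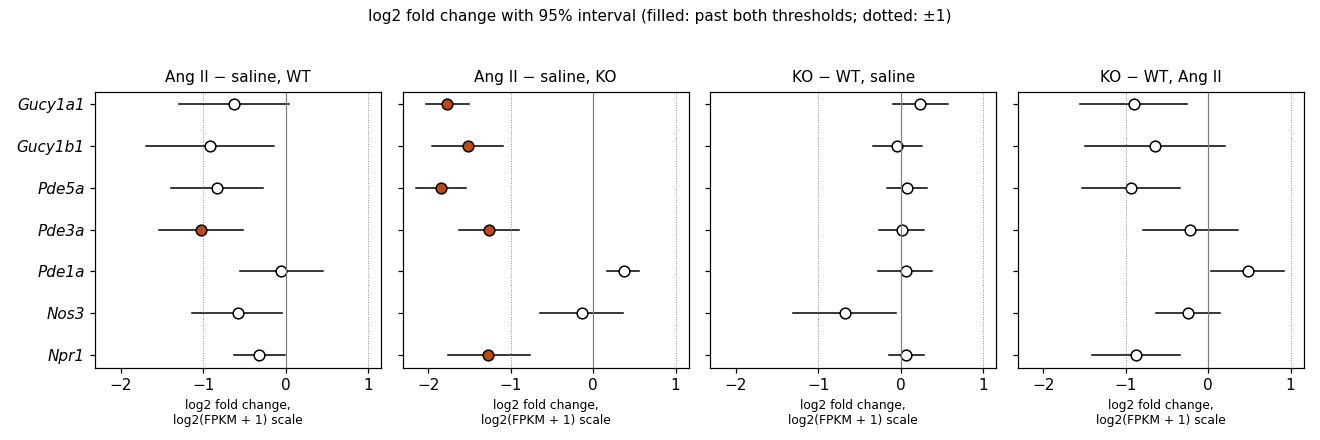
log2 fold change on the log2(FPKM + 1) scale (x axis) of the 7 genes above the filter (y axis) in 4 comparisons, with 95% intervals. Filled points passed both thresholds, which 5 genes did for Ang II in KO mice, Pde3a alone did for Ang II in WT mice, and none did between the genotypes.

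The difference of the 2 Ang II responses, KO minus WT, was fitted on all 20 mice. Of the 7 genes, 2 were past both thresholds and lower, Gucy1a1 and Pde5a, against 6.36% of 13263 genes. Nothing is read from the call of Gucy1a1, since its KO response is part of this difference. Of the other 6 genes 1 was called, Pde5a. Its value holds the response of the same KO mice, and it followed Gucy1a1 across the mice (r = 0.96). The call of Pde5a is thus not separate from the choice of Gucy1a1. The difference was -1.14 for Gucy1a1 (SE 0.35, no test) and -1.01 for Pde5a (SE 0.30, limma adjusted p = 0.0144) on the log2 scale. For Npr1 it was -0.95 (SE 0.27, limma adjusted p = 0.0110), below the fold threshold. For Gucy1b1 it was -0.60 (limma adjusted p = 0.280), for Pde3a -0.23 (limma adjusted p = 0.563), for Pde1a 0.42 (limma adjusted p = 0.198) and for Nos3 0.44 (limma adjusted p = 0.339). Without WT-AngII replicate 4 the value was -0.26 for Gucy1b1 and 0.00 for Pde3a, and Nos3 ran from 0.24 to 0.60 without 1 mouse each. Both calls were lost without WT-AngII replicate 4, where the values were -0.85 for Gucy1a1 and -0.76 for Pde5a (limma adjusted p = 0.00609). The Pde5a call was also lost without any of WT-Saline replicate 1, WT-AngII replicate 3, KO-Saline replicates 1 and 4 and KO-AngII replicates 3, 4 and 5, at -0.94 to -1.0.

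Markers of smooth muscle, the cell type in which cyclic GMP signalling relaxes the vessel, were also lower under Ang II. In KO mice Gucy1a1, Gucy1b1, Pde5a, Pde3a and Npr1 were lower as well, while Pde1a (0.37 on the log2 scale) and Nos3 (-0.14) did not follow the markers. Of 14 smooth muscle markers, 4 were DEGs lower in WT-AngII mice, against 2.28% of all genes tested. The median log2 fold change of the 14 was -0.85 against -0.14 over all genes. In KO mice 11 of 14 were past both thresholds and lower under Ang II, against 5.51%, with a median of -1.74 against 0.05 over all genes. Under saline none was a DEG between the genotypes, against 0.767%, and under Ang II 2 were lower in KO mice, against 3.67%. Myh11, smooth muscle myosin heavy chain and a defining marker, was 930 to 1353 FPKM in WT-Saline, 363 to 1180 in WT-AngII, 1087 to 1522 in KO-Saline and 166 to 801 in KO-AngII mice, and none of the markers was at 0 in all mice. Tagln was at 1.46 to 12.2 FPKM, far below Acta2 at 1901 to 17685. Whether so low a level measures this gene properly was not tested. Its calls, at -1.0 in WT and -1.12 in KO mice on the log2 scale, are among the counts above. Beside the smooth muscle list, 10 of 11 macrophage markers were past both thresholds and higher in KO-AngII than in KO-Saline mice, against 8.38% of all genes. Their summed level was 1099 to 5754 FPKM against 152 to 533. All 11 tested adipocyte markers were DEGs higher in WT-AngII mice, against 6.38% of all genes. The summed level of the adipocyte list was 1614 FPKM in WT-AngII replicate 4 and at least 5280 in the others of that group.

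**Figure D3:**
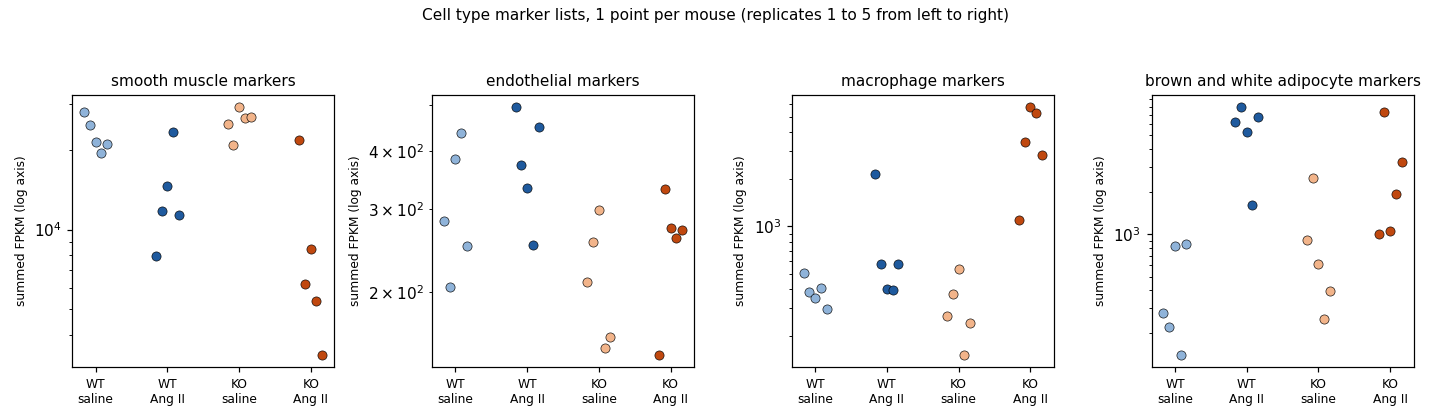
Summed FPKM (y axis, log scale) of smooth muscle, endothelial, macrophage, and brown and white adipocyte marker lists in each mouse, by group (x axis). Smooth muscle marker sums were 3357 to 8443 in 4 of the KO-AngII mice and 21755 in replicate 1.

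Each gene was therefore also set against the mean of the 14 smooth muscle markers of the same mouse, as a difference on the log2(FPKM + 1) scale. For Gucy1a1 this difference was -4.22, -4.11, -3.49, -3.66 and -3.43 in WT-Saline mice and -3.52, -3.92, -3.51, -3.18 and -3.75 in WT-AngII mice. It was -3.36, -3.62, -3.78, -3.66 and -3.52 in KO-Saline mice and -5.25, -3.49, -3.78, -3.10 and -3.23 in KO-AngII mice. Apart from KO-AngII replicate 1, the KO-AngII mice were within or above the KO-Saline range. In replicate 1 the smooth muscle markers were near the saline level while Gucy1a1 was as low as in the other mice of its group. For Pde5a the difference was -5.11 in KO-AngII replicate 1 and between -3.37 and -4.16 in the others, against -3.57 to -3.90 in KO-Saline mice.

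In WT mice the Ang II response relative to the smooth muscle markers was 0.21 for Gucy1a1 (two-sided exact permutation p = 0.357) and -0.08 for Gucy1b1 (exact p = 0.770). It was 0.00 for Pde5a (exact p = 1.00) and -0.20 for Pde3a (exact p = 0.294). For Nos3 it was 0.25 (exact p = 0.603) and for Pde1a 0.78 (exact p = 0.0794). Npr1 was higher relative to the markers in WT-AngII mice, by 0.51 (exact p = 0.0159), and 4 of the 5 mice lay above all WT-Saline mice. These are 7 tests, and the p-values are not adjusted. In KO mice, with no test, the relative response was -0.18 for Gucy1a1, 0.07 for Gucy1b1, -0.26 for Pde5a, 0.33 for Pde3a and 0.32 for Npr1. It was 1.96 for Pde1a, which lay above the KO-Saline range in all 5 KO-AngII mice, and 1.45 for Nos3. Without KO-AngII replicate 1 it was 0.19 for Gucy1a1, 0.02 for Pde5a, 0.27 for Gucy1b1, 0.54 for Pde3a and 0.63 for Npr1. Without KO-AngII replicate 2 it was 0.08 for Npr1 and -0.04 for Gucy1b1, and without replicate 5 it was 0.22 for Pde3a. What part the number of smooth muscle cells had in the levels of these genes was not tested.

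**Figure D4:**
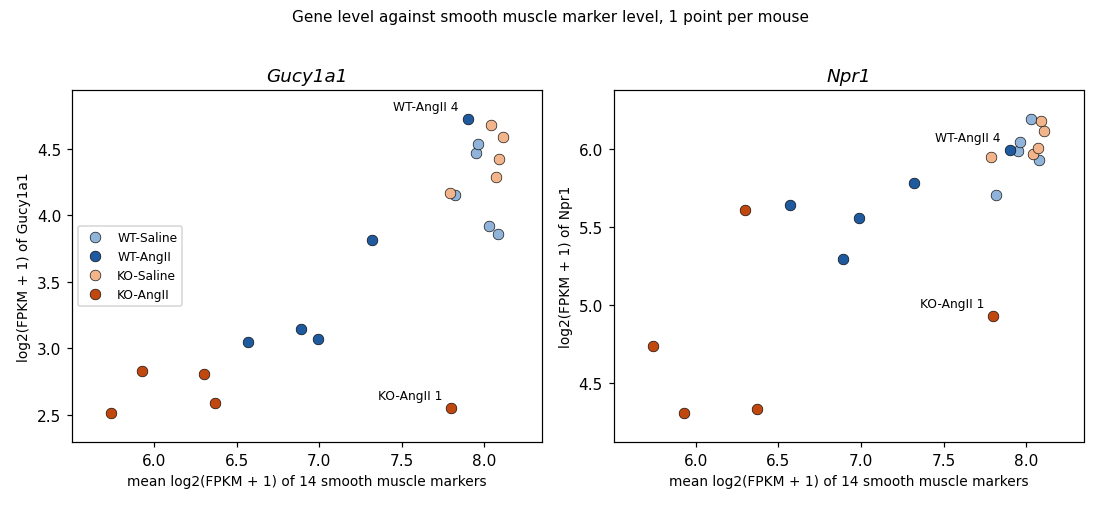
log2(FPKM + 1) of Gucy1a1 and of Npr1 (y axes) against the mean log2(FPKM + 1) of 14 smooth muscle markers (x axis), 1 point per mouse. For Gucy1a1, KO-AngII replicate 1 lies apart from the other mice, at a saline-like marker level, and WT-AngII replicate 4 lies with the saline mice.

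The genes most like Gucy1a1 across the 20 mice, by Pearson's r of log2(FPKM + 1) among 13263 genes, were Plxnb1 (r = 0.977), Rab12 (0.968), 4930429F24Rik (0.968), Tmem136 (0.966) and Atp1b2 (0.964). Plxnb1 encodes the semaphorin receptor plexin B1, Rab12 a small GTPase and Atp1b2 a sodium pump subunit. Of the pathway genes described here, Pde5a (r = 0.96) ranked 13, Gucy1b1 (0.93) ranked 121, Pde3a (0.88) ranked 485 and Npr1 (0.83) ranked 858. Nos3 (0.20) and Pde1a (-0.43) did not follow it. With the group means removed, r was 0.81 for Pde5a, 0.82 for Gucy1b1, 0.69 for Pde3a and 0.34 for Npr1. For Gucy1a1, Pde5a, Gucy1b1 and Pde3a, WT-AngII replicate 4 was far above the other mice of its group. What r would be without that library was not computed. The 20 points fall into 4 treatment groups, and both values of a point come from the same library, so these values are descriptions.

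The other genes of the pathway were taken as 4 lists of 81 genes in all, of which 79 were found in the files. In WT mice 43 of them were tested for Ang II, of which 5 fell and 2 rose as DEGs, against 2.28% lower and 6.38% higher among all genes tested. Pde3b, a phosphodiesterase of adipocytes and other cells, rose from 1.72 ± 0.658 to 8.49 ± 2.72 FPKM (SD, n = 5), which was 1.78 on the log2 scale (SE 0.23, limma adjusted p = 0.00181). Pts, an enzyme of the synthesis of the synthase cofactor tetrahydrobiopterin, rose by 1.07 (SE 0.16, limma adjusted p = 0.00181). Among targets of the kinase, Hspb6, a small heat shock protein that is phosphorylated in relaxation, fell by 1.13 on the log2 scale (SE 0.22, limma adjusted p = 0.00448). Ppp1r12b, a myosin phosphatase subunit, fell by 1.08 (SE 0.26, limma adjusted p = 0.0111). The arginine transporter gene Slc7a1 fell by 1.0 (SE 0.20, limma adjusted p = 0.00442) and the chaperone gene Hsp90aa1 fell by 1.02 (SE 0.23, limma adjusted p = 0.00779). The adipocyte markers named above were higher in the same mice as Pde3b, and their part in its level was not tested.

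Several of these WT calls lay at the fold threshold and were lost when 1 mouse was left out. The Slc7a1 call was lost without any of WT-Saline replicates 1 and 2 and WT-AngII replicates 2, 3 and 5, at -0.89 to -1.0. The Hsp90aa1 call was lost without any of WT-Saline replicates 1 and 2 and WT-AngII replicate 1, at -0.87 to -0.94. The Ppp1r12b call was lost without WT-AngII replicate 1 or 2, at -0.95 and -0.97, and the Pts call without WT-AngII replicate 5, at 0.99. The calls of Pde3b and Hspb6 were kept whichever mouse was left out. The count of 7 pathway DEGs in WT mice became 4 without WT-AngII replicate 1, 2 or 5.

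In KO mice 45 of the pathway list genes were measured above the filter, and 9 were lower and 5 higher past both thresholds, described with no test, against 5.51% lower and 8.38% higher among all genes. The targets of the kinase held 7 of the lower genes of 13, with a median log2 fold change of -1.26 against 0.05 over all genes. Ppp1r12b was 64.1 ± 7.25 FPKM in KO-Saline and 15.3 ± 7.95 in KO-AngII mice (SD, n = 5). Its partner Ppp1r12a was 51.5 ± 7.35 and 16.4 ± 5.25 FPKM, and the myosin light chain kinase gene Mylk, itself among the smooth muscle markers, 165 ± 31.8 and 40.4 ± 19.3. Itpr1, the calcium release channel of the sarcoplasmic reticulum, was 7.81 ± 0.759 and 2.70 ± 0.532 FPKM. Npr2, the receptor of C-type natriuretic peptide, was 40.2 ± 5.09 and 16.1 ± 3.49 FPKM, and Pde4a, a cyclic AMP phosphodiesterase, 11.3 ± 0.947 and 3.68 ± 0.881. For these 6 genes the log2 fold changes were -2.10, -1.63, -2.09, -1.26, -1.28 and -1.41 in this order, and all KO-AngII mice were below all KO-Saline mice.

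**Figure D5:**
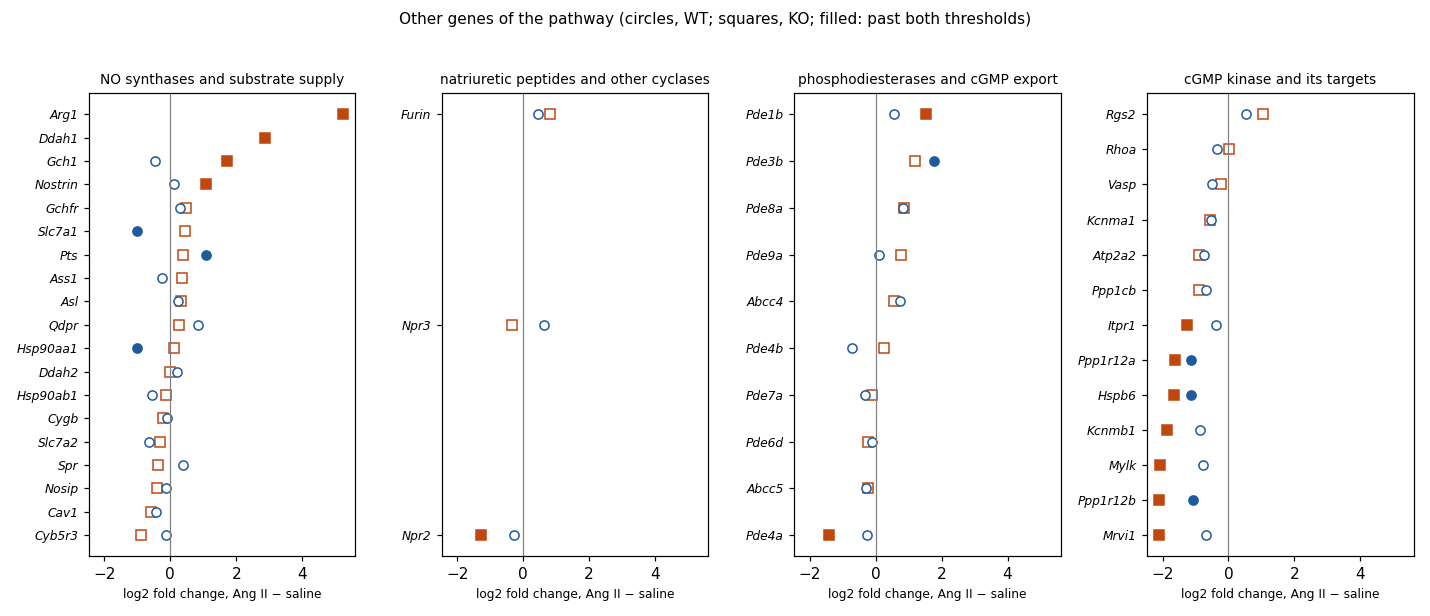
log2 fold change for Ang II against saline on the log2(FPKM + 1) scale (x axis) of the other pathway genes in 4 lists (y axis). Circles are WT mice, squares are KO mice, filled symbols passed both thresholds, and a gene below the filter in a genotype has no symbol there. Of the 13 kinase and target genes, 7 are filled in KO mice and 3 in WT mice.

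Between the genotypes under saline, 0 of 43 pathway list genes were DEGs by limma, against 0.767% of all genes. By limma 16 had an unadjusted p below 0.05, but the share of all genes at that p was not computed, so nothing is read from this count. By the adjusted p alone 8 of the 43 passed limma, against 786 of 11999 genes. Lower in KO-Saline mice were Gch1 (-0.82 on the log2 scale), Hsp90aa1 (-0.87), Hsp90ab1 (-0.67), Slc7a1 (-0.59) and Pde9a (-0.44). Higher were Cyb5r3 (0.44), Pde1b (0.43) and Npr2 (0.38). Under Ang II, 47 were tested, of which 2 were lower and 5 higher in KO than in WT mice, against 3.67% lower and 7.45% higher among all genes. Without KO-AngII replicate 1 the 7 DEGs became 12. Arg1, arginase 1, which competes with the synthases for arginine, was 1.5 ± 2.95 FPKM in WT-AngII and 142 ± 129 in KO-AngII mice (SD, n = 5), which was 5.74 higher on the log2 scale (SE 0.79, limma adjusted p = 0.00155). Ddah1, which degrades the synthase inhibitor asymmetric dimethylarginine, was higher by 2.60 (SE 0.51, limma adjusted p = 0.00565). Gch1, the rate-limiting enzyme of tetrahydrobiopterin synthesis, was higher by 1.37 (SE 0.34, limma adjusted p = 0.0145). Pde1b was higher by 1.38 (SE 0.25, limma adjusted p = 0.00408) and Lrmp, a relative of the kinase substrate Mrvi1, by 1.26 (SE 0.33, limma adjusted p = 0.0165). Pde4a was lower, at -1.17 (SE 0.17, limma adjusted p = 0.00190). Macrophage markers, 10 of 11 of which were DEGs higher in KO-AngII than in WT-AngII mice, moved with the higher genes. So did 5 of 6 tested neutrophil markers, with a median log2 fold change of 3.01, and 7 of 9 erythrocyte and platelet markers, with a median of 2.61, against 0.12 over all genes. The part of these cells in the levels was not tested.

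In the difference of the Ang II responses 5 of 48 pathway list genes were lower and 6 higher as DEGs, against 6.36% lower and 9.69% higher among all genes. Gch1 differed by 2.19 (SE 0.41, limma adjusted p = 0.000769), and its mean was 2.98 FPKM in WT-Saline, 1.98 in WT-AngII, 1.20 in KO-Saline and 6.88 in KO-AngII mice. Slc7a1 differed by 1.44 (SE 0.30, limma adjusted p = 0.00156), with means of 4.61, 1.82, 2.68 and 4.26 FPKM in the same order. Arg1 differed by 4.59 (SE 0.87, limma adjusted p = 0.000787) and Ddah1 by 2.54 (SE 0.55, limma adjusted p = 0.00193). Pde4a differed by -1.16 (SE 0.22, limma adjusted p = 0.000861) and Npr2 by -1.03 (SE 0.20, limma adjusted p = 0.000879). The Npr2 call was lost without any of 6 mice, WT-Saline replicate 1, WT-AngII replicate 4, KO-Saline replicates 4 and 5 and KO-AngII replicates 3 and 5, at -0.91 to -1.0.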

How the data were processed

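RNA from the abdominal aortas of 20 mice was sequenced by the authors, and genotype, treatment and replicate were taken from the labels. By the study's methods, ribosomal reads were removed, the rest aligned with HISAT2 and quantified by stringtie, cuffquant and cuffnorm, run with default settings. The submitters' processing notes name mm10, HISAT2 2.1.0, Bowtie2 2.2.3 and HTSeq 0.6.0, and the annotation is not given in the sources used here. The deposited values are FPKM for 43422 Ensembl genes per mouse. The methods name cuffnorm and the notes HTSeq, so which program gave these values, and how they were scaled between libraries, is not settled here. Counts of reads were not analysed here, so edgeR was not run and no counting interval is given. Symbols and coordinates came from GENCODE M21 (GRCm38), which matched 43226 genes. No 2 libraries were identical (highest r 0.9929).

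Analyses were run in R 4.3.3, limma 3.58.1 and Python 3.11.15. Genes that reached an FPKM of 1 in 5 or more mice of a fit were fitted on log2(FPKM + 1) by limma, using eBayes and its variance trend, for 10 mice in each comparison and 20 in the difference of responses. Prkg1 and Gucy1a2, below that filter, were compared by exact permutation tests. The fit was tested on simulated data. The members, gene lists and comparisons were chosen with earlier results of these data known. Named genes were the 9 members, at most 6 pathway DEGs per comparison by smallest p, the 5 genes most like Gucy1a1, and Plod1. Markers and library checks were named beside results. Same-numbered mice of different groups correlated between -0.33 and 0.45, with at most 2 of 5 pairs over 0.1, so numbers did not pair mice. Alternatives were a pseudocount of 0.1, no filter, a replicate block, no variance trend, weights per mouse, quantile normalization, all groups in one fit, the adjusted p alone, mitochondrial genes left out, both Xist libraries left out, and each mouse left out.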

Additional observations from a re-analysis of the deposited data

Results flagged for a closer look

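In WT-AngII mice 3 values stood apart from the other 4 of their group, by a gap to the nearest mouse above 0.71 of the group's range. These were Pde5a (20.1 FPKM) and Pde3a (13.1 FPKM) in replicate 4, with gaps of 0.74 and 0.731, and Pde1a in replicate 1 (6.19 FPKM), with a gap of 0.834. The chance of such a gap is about 1 in 20 for each of the 36 groups examined, so some of these values may have arisen by chance. The Pde5a and Pde3a values come from the same library.

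The Ang II response differed between the genotypes, KO minus WT on the log2 scale, by limma's test of the difference for Pde5a (-1.01). For Gucy1a1 the value was -1.14, a description with no test, and the Pde5a value holds the response of the same KO mice. Of the pathway lists the response also differed for Gch1 (2.19), Arg1 (4.59), Pde4a (-1.16), Npr2 (-1.03), Slc7a1 (1.44) and Ddah1 (2.54). The values of Gucy1a1, Pde5a and Npr2 went below the fold threshold without WT-AngII replicate 4, at -0.85, -0.76 and -0.93, and the others kept their calls.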

How the results depend on the processing

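The count of DEGs among the 7 genes was 5 for Ang II in KO mice in every alternative but the adjusted p alone, which gave 6, and 0 between the genotypes under saline in all. For Ang II in WT mice it was 1, and became 3 with weights per mouse, 2 by the adjusted p alone and 0 with mitochondrial genes left out (0 to 3 without 1 mouse each). Between the genotypes under Ang II it was 0, and became 1 with a pseudocount of 0.1, with weights per mouse, with mitochondrial genes left out or with both Xist libraries left out, 2 with quantile normalization and 3 by the adjusted p alone (0 to 2 without 1 mouse each). In the difference of responses it was 2, and became 1 with weights per mouse, 3 with quantile normalization, by the adjusted p alone or with mitochondrial genes left out, 0 with WT-AngII replicate 4 and KO-AngII replicate 1 both left out, which was chosen after seeing the data, and 0 to 3 without 1 mouse each. The causes were not tested. With the replicate block the counts were 1, 5, 0, 0 and 2, as without it, and the block ended the calls of Gch1 (1.37) and Lrmp (1.26) between the genotypes under Ang II.

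Signs turned for small values that had not passed a test or had none. Without 1 mouse each, Pde1a for Ang II in WT mice ran from -0.25 to 0.07. Between the genotypes under saline, Gucy1b1 ran from -0.11 to 0.03, Pde3a from -0.05 to 0.10, Pde1a from -0.05 to 0.19 and Gucy1a2 from -0.007 to 0.032. Under Ang II, Pde3a ran from -0.34 to 0.02, Gucy1a2 from -0.012 to 0.013 and Prkg1 from -0.127 to 0.008. Nos3 for Ang II in KO mice ran from -0.28 to 0.02, and Gucy1b1 relative to smooth muscle markers there from -0.04 to 0.27, Gucy1a1 from -0.35 to 0.19 and Pde5a from -0.41 to 0.02. Relative to smooth muscle markers in WT mice, Gucy1b1 ran from -0.24 to 0.09 and Pde5a from -0.10 to 0.10. With 4 core markers (Myh11, Acta2, Cnn1 and the low Tagln) they were 0.03 and 0.11.

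Under quantile normalization the median fold change (log2) over all genes went from 0.12 to -0.03 between the genotypes under Ang II, from 0.05 to -0.06 for Ang II in KO mice and from 0.12 to -0.01 in the difference of responses. In the last it turned 1285 higher and 844 lower DEGs of all genes into 1020 and 1095, and between the genotypes under Ang II 920 higher and 453 lower into 744 and 612. The adjusted p alone gave 4560 DEGs of all genes for Ang II in WT mice against 1039, 5408 against 1714 in KO mice, 786 against 92 between the genotypes under saline, 3849 against 1373 under Ang II and 5017 against 2129 in the difference. Under saline the count was 149 with a pseudocount of 0.1, 41 with no filter, 57 with all groups in one fit and 60 without the Xist libraries (38 to 104 without 1 mouse each), and under Ang II 2134 with weights per mouse. Among the pathway lists the adjusted p alone gave 23, 25, 8, 14 and 21 DEGs against 7, 14, 0, 7 and 11, and without KO-AngII replicate 1 the count under Ang II was 12. The depth is unknown, so levels below 1 FPKM, as for Prkg1 and Gucy1a2, have no stated precision.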
